A study of Mus musculus with 27 samples.

Results

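The 10 genes described here are the endoplasmic reticulum (ER) folding genes Hspa5, Hsp90b1, Calr, Pdia3 and Pdia4, the transcription factor genes Xbp1, Atf4 and Ddit3, and the enzyme genes Asns and Mthfd2. They were taken by gene symbol from the platform annotation, whatever their values, which gave 12 of the 12488 probe sets in the table. A probe set is a group of short probes for 1 transcript. After a filter on dim probe sets, 9 of the 12 were tested, 1 each for 9 genes, and Calr had none. NIH/3T3 is an established mouse fibroblast line. All 27 arrays came from such cells exposed for 2 h to 15 µM forskolin, which activates adenylyl cyclase and so raises cyclic AMP, after serum had been lowered in steps. The drug was given and washed out in medium free of serum, and the cells stayed in that medium until harvest. Total RNA was taken at the end of the pulse (0 h) and every 6 h until 48 h in 3 experiments, so that each of the 9 time points had 3 arrays. The series asked which transcripts of these cells follow a circadian course. Every group had the pulse and the serum withdrawal, and unpulsed cultures were not used here, so the 0 h arrays are the reference and not an untreated state.

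The ER folds secreted and membrane proteins with chaperones and with disulfide isomerases. When unfolded proteins build up there, the unfolded protein response (UPR) raises these genes through the sensors IRE1, which splices Xbp1 mRNA, ATF6 and PERK. PERK, like the kinase that senses amino acid shortage, phosphorylates an initiation factor, which lowers protein synthesis but favours translation of Atf4 mRNA. ATF4 protein then raises genes of amino acid supply such as Asns and, with prolonged stress, Ddit3. The arrays measure mRNA, so neither Xbp1 splicing nor ATF4 protein is seen here.

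All 12 fibroblast marker genes on the array had a median intensity above 100, up to 23890 for Col1a2, and those of other cell types were above 100 in 1 of 5 epithelial, 1 of 4 leukocyte, 1 of 4 endothelial, 3 of 4 muscle and 2 of 4 neural genes. The brightest of these were Cdh1 (491.9), Cd14 (917), Kdr (131.3), Myod1 (252.5) and Eno2 (553.1), and the lowest fibroblast marker was Vim (132.5). The actin control, which compares signal from the 3′ and 5′ ends of the message as a sign of RNA integrity, had ratios from 1.11 to 1.73, with medians of 1.61, 1.23 and 1.49 in experiments 1, 2 and 3. The same ratio for Gapdh ran from 0.703 to 0.916, with medians of 0.782, 0.784 and 0.757. Arrays of the same experiment deviated together, and the first principal component, with 28.7% of the variance, set experiment 1 apart. The deposited arrays share 1 scale, so a value stands for a share of the RNA, and fewer cells of a kind cannot be told apart from less RNA per cell. The labels call the experiments biological replicates.

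Windows upstream of the members' starts were searched because chaperone genes and amino acid response genes are textbook carriers of different short elements. The ER stress response element, CCAAT and CCACG with any 9 bases between them, is bound by NF-Y and ATF6. It lies in 39 of 32851 mouse windows of 250 bases before to 50 bases after a start (0.119%), counting both strands. Of the 10 members it lies in those of Hspa5, Hsp90b1 and Calr. The amino acid response element TGATGNAA, bound by ATF4 with a C/EBP partner, lies in 1304 windows (3.97%) and among the members in that of Asns alone. The full cyclic AMP response element TGACGTCA lies in 588 windows (1.79%) and in 0 of the 10. The window of Mthfd2 belongs to a transcript that begins inside the span of the gene, so its outer start was not searched. The 220 bases before the start are printed for the chaperone genes Hspa5 and Hsp90b1, for Xbp1, whose course was most like that of Hspa5 among the members, and for Asns. They come from RefSeq (GRCm38.p6), on the strand of the gene, with matches in capitals.
Hspa5, chr2:34771870-34772089, plus strand: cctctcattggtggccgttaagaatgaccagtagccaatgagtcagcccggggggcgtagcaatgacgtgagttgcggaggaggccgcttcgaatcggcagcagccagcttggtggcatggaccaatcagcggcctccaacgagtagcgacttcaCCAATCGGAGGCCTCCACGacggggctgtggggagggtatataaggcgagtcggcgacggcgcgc
Hsp90b1, chr10:86705445-86705664, minus strand: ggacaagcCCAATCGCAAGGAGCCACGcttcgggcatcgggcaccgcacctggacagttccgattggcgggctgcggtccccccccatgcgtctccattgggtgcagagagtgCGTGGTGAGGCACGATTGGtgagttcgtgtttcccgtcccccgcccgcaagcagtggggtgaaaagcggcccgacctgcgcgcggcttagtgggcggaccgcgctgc
Xbp1, chr11:5520421-5520640, plus strand: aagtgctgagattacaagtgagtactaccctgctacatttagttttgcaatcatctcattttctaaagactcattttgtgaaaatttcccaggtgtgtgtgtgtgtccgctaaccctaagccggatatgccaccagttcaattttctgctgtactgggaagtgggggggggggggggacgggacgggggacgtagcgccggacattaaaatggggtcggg
Asns, chr6:7693210-7693429, minus strand: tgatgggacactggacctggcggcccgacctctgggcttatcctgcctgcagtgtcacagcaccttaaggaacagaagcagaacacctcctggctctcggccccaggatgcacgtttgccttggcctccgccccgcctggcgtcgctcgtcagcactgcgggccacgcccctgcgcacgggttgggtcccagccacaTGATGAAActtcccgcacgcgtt
With the base before the start as -1, the match in Hspa5 spans -65 to -47. Hsp90b1 has a match at -212 to -194 and another, on the opposite strand, at -107 to -89. The Asns match spans -23 to -16. The Xbp1 window holds none of the 3 elements in these letters. A match is a string of letters and not a measured binding site, and the lack of one says nothing about a factor.

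At 6 h after the pulse 8 of the 9 tested members had a lower mean than at 0 h, and their later courses differed. Hspa5, Xbp1 and Pdia3 had means above the 0 h mean at 42 h and 48 h, whereas those of Asns, Mthfd2 and Atf4 were still below it at 48 h. Ddit3 had a higher mean at 6 h, and Pdia4 passed no test with all 3 experiments. Tests used limma on log2 intensity, and a call is an adjusted p (Benjamini-Hochberg, over 7453 probe sets) below 0.05. The fit fixed as the main one ignores the experiment number. Since arrays of 1 experiment deviated together, the fit with the experiment as a block, which compares time points within experiments, is given beside it wherever it changes a call.

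In the F test over all 9 time points, 1 of the 9 members was called (Xbp1, adjusted p = 0.0323), where 7.3% of all probe sets were. With the block 6 of 9 were called (Hspa5, Pdia3, Xbp1, Atf4, Asns and Mthfd2), against 26.4% of all. At 6 h against 0 h, limma without the block called 0 of 9, and 5 had an unadjusted p below 0.05. Of all probe sets 6.09% were called there, 3.7% higher and 2.39% lower. With the block 6 members were called, all lower, against 16.7% of all (9.97% higher and 6.74% lower). At 12 h, 2 members were called, both lower, against 8.33% of all (4.6% higher and 3.73% lower). With the block 5 were lower and 1 higher, against 20.4% of all (10.9% higher and 9.5% lower). At 24 h, 2 members were called, both lower, against 6.92% of all (4.08% higher and 2.84% lower). With the block 5 were called, all lower, against 18.6% of all (10.6% higher and 7.96% lower). At 48 h against 0 h, limma without the block called 0 members, and 3 had an unadjusted p below 0.05. Of all probe sets 7.9% were called, 4.67% higher and 3.23% lower. With the block 3 members were lower and 1 higher, against 19.8% of all (10.7% higher and 9.07% lower). The median log2 change of the 9 members was -0.40 at 6 h and -0.33 at 12 h, where the medians of all probe sets were -0.0043 and 0.015. It was -0.49 at 24 h and then -0.12 at 48 h, where those of all probe sets were 0.0081 and 0.0018. These 4 comparisons share the 0 h arrays.

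**Figure D1:**
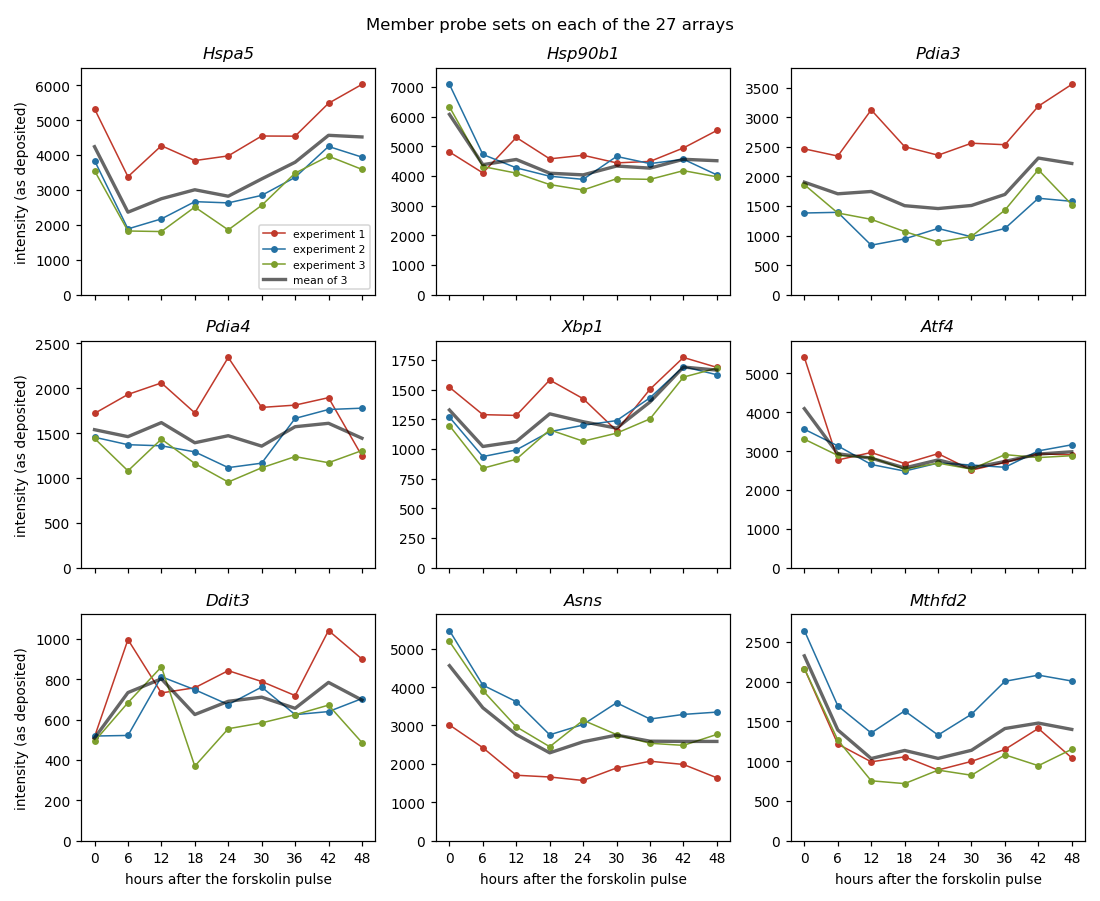
Intensity as deposited (vertical axis, linear, from 0) against hours after the pulse for the 9 tested members, 1 line per experiment and a thick grey line for the mean of the 3. All 3 of the 0 h points of Atf4 and of Mthfd2 lie above every later point of that gene, a pattern not counted over all probe sets. Experiment 1 runs above the others in Hspa5 and Pdia3 and below them in Asns.

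Hspa5 (chr2:34772090-34776529), which encodes BiP, the main ER chaperone and a brake on the UPR sensors, was lower at 6 h in all 3 experiments and higher again by 42 h. At 0 h its intensity was 5321, 3840 and 3549 in experiments 1, 2 and 3. At 6 h it was 3377, 1882 and 1822. All 3 of the 6 h values lay below all 3 of the 0 h values, as for 9.55% of all probe sets. The change was -0.85 ± 0.34 (SE, n = 3 arrays per time point; 1.80-fold lower), with an adjusted p of 0.168. With the block the SE was 0.12 and the adjusted p 2.44e-05. Within experiments it was -0.62, -0.98 and -0.94. The share of all probe sets that were lower in all 3 experiments is not given here. At 12 h the intensity was 4265, 2168 and 1806, and at 24 h 3973, 2627 and 1854, so that the groups overlapped with 0 h although each experiment was below its own start. The changes were -0.68 at 12 h (adjusted p = 0.276; 0.000232 with the block) and -0.59 at 24 h (0.388; 0.000899 with the block). Without experiment 3 the 24 h call of the block fit was lost (-0.43, adjusted p = 0.0726).

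The return of Hspa5 was gradual. The 36 h arrays read 4538, 3358 and 3479, the 42 h arrays 5479, 4243 and 3965, and the 48 h arrays 6021, 3938 and 3587. At 42 h each experiment was above its own 0 h value, and at 48 h the difference from 0 h was 0.13 ± 0.34 (adjusted p = 0.907). Over the 24 arrays from 6 h to 48 h the linear trend was 0.58 ± 0.16 log2 units per day (adjusted p = 0.0234), and 2.83% of all probe sets were called as rising. Without experiment 2 or 3 it was 0.57 or 0.51 and was not called (adjusted p = 0.229 and 0.218). With the block it was called with all experiments (5.38e-07) and without each in turn. Experiment 1 ran above the other 2 in Hspa5, with a median of 4538 against 2842 and 2555. It also had the highest median actin 3′ to 5′ ratio, but not the highest for Gapdh (0.782 against 0.784 and 0.757). The part of RNA integrity in this offset was not tested.

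Hsp90b1 (chr10:86690841-86705444) encodes GRP94, the ER member of the HSP90 family. Its intensity at 0 h was 4808, 7085 and 6330, and at 6 h 4102, 4723 and 4315. All 3 of the 6 h arrays were below all 3 of the 0 h arrays, as for 9.55% of all probe sets. The change was -0.40 ± 0.17 (adjusted p = 0.205), and with the block ± 0.14 (0.0487), a call that was lost without experiment 2 (-0.35, 0.251) or 3 (-0.35, 0.329). At 24 h the arrays gave 4697, 3884 and 3526, and the change was -0.49 ± 0.17 (0.0871; 0.0127 with the block). The experiments differed here. Experiments 2 and 3 stood at -0.80 and -0.75, whereas experiment 1 stood at 0.07 after quantile normalization, with a ratio of deposited intensities of 0.977. Without experiment 1 the 24 h change was -0.78 and was called without the block (adjusted p = 0.0020), and with the block it was lost without experiment 2 (-0.34, 0.251) or 3 (-0.36, 0.298). From 30 h to 48 h experiment 2 read 4657, 4415, 4561 and 4035, and experiment 3 read 3905, 3885, 4178 and 3970, all below their 0 h values. Experiment 1 stood at 5532 at 48 h, above its own. The change at 48 h against 0 h was -0.32 and was called in neither fit (adjusted p = 0.306; 0.102 with the block). Its trend from 6 h to 48 h was 0.06 ± 0.08 per day.

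Calr (chr8:84842088-84846931) encodes calreticulin, a calcium-binding lectin chaperone of the ER. Its single probe set read 1.6 to 52.5 over the 27 arrays, with a median of 22.7, and fell below the filter. No detection calls were used, so this intensity cannot be told from background, and no level or change of Calr is given. The second probe sets of Asns (39.9 to 161.1, median 88.9) and Mthfd2 (7.0 to 37.5, median 13.7) were also below the filter. That of Asns lay just under it, with a mean log2 value of 6.66 against the limit of 6.77. The dimmest tested member was Ddit3, with a mean log2 value of 9.42.

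Pdia3 (chr2:121413902-121438687) encodes ERp57, a disulfide isomerase that works with calreticulin and calnexin on glycoproteins. Its arrays were set apart by experiment. In experiment 1 it ran from 2344 to 3556, in experiment 2 from 836 to 1630 and in experiment 3 from 890 to 2112. Every array of experiment 1 was thus above every array of the other 2, as for 2.37% of all probe sets. Within experiments its level was 2466, 1381 and 1860 at 0 h, then 2358, 1119 and 890 at 24 h, and 3556, 1578 and 1522 at 48 h. The change at 24 h against 0 h was -0.48 ± 0.51 without the block and ± 0.18 with it (adjusted p = 0.73 and 0.0698). Without experiment 1 it was -0.71 and was called with the block (0.0186). It was called in the F test with the block alone (adjusted p = 0.0153, a range of 0.76 between the highest mean at 42 h and the lowest at 24 h), and this was lost without experiment 2 (0.169) or 3 (0.301).

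Pdia4 (chr6:47796141-47813512) encodes ERp72, another disulfide isomerase. With all 3 experiments it was not called in any of the 8 tests, with or without the block. Its intensity ran from 1245 to 2342 in experiment 1, from 1115 to 1777 in experiment 2 and from 954 to 1440 in experiment 3. At 24 h experiment 1 was above its 0 h value (2342 against 1719) and the other 2 were below theirs (1115 against 1453, and 954 against 1440). The change at 24 h was -0.19 ± 0.30, and the value depended on the experiments used. Without experiment 1 it was -0.52 and was called as lower with the block (adjusted p = 0.0358; 0.202 without the block), without experiment 2 it was -0.084, and without experiment 3 its sign turned (0.0145).

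Xbp1 (chr11:5520641-5525993), whose product is made active by IRE1 splicing and raises ER folding and degradation genes, had a course like that of Hspa5. Its intensity was 1519, 1268 and 1197 at 0 h, and 1289, 936 and 837 at 6 h. Each experiment dropped, though the groups overlapped and the share of all probe sets that dropped in each experiment is not given here. The change was -0.40 ± 0.17 (adjusted p = 0.196), and with the block ± 0.11 (0.0113), lost without experiment 2 (0.147) or 3 (0.195). It then climbed to 1770, 1693 and 1605 at 42 h and 1687, 1625 and 1680 at 48 h. All 3 of the 48 h arrays were above all 3 of the 0 h arrays, as for 12.2% of all probe sets, and above all 3 of the 24 h arrays (1423, 1199 and 1065), as for 4.43%. At 48 h against 0 h the difference was 0.31 ± 0.17 (adjusted p = 0.336), and with the block ± 0.11 (0.0442), which was lost without experiment 2 (0.257) or 3 (0.408). At 12 h against 0 h it was -0.33 (0.287; 0.0315 with the block, lost without experiment 2 or 3 at 0.213 and 0.228).

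Xbp1 rose from 6 h to 48 h by 0.36 ± 0.08 log2 units per day (adjusted p = 0.00518; 7.05e-05 with the block). Without experiment 2 or 3 the trend was 0.31 or 0.29 and was not called without the block (0.182 and 0.156). With the block it was called without each experiment. Its range over the 9 time means was 0.75, from 6 h to 42 h. The F test call was lost without experiment 2 (adjusted p = 0.747), experiment 3 (0.817) or the 0 h arrays (0.0763), and with the block without experiment 3 (0.062).

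Atf4 (chr15:80255184-80257545) encodes the central transcription factor of the amino acid and ER stress branches. It was highest right after the pulse, at 5409, 3561 and 3306, and all of the later 24 arrays were lower, between 2485 and 3161. The 6 h arrays gave 2770, 3134 and 2887. The 12 h arrays gave 2964, 2655 and 2834, and those of 24 h gave 2933, 2692 and 2690. At each of these times all 3 arrays lay below all 3 of the 0 h arrays, as did 9.55%, 11% and 9.15% of all probe sets. The share of all probe sets that was lower at every later time was not counted. The change was -0.44 ± 0.13 at 6 h (adjusted p = 0.0542; 0.00893 with the block). It fell by 0.48 ± 0.13 at 12 h (0.0272) and by 0.50 ± 0.13 at 24 h (0.0236), the latter 1.42-fold. The size of the fall rested on experiment 1, at -0.84 at 24 h against -0.36 and -0.30 in the others. Without experiment 1 the changes were -0.31 at 12 h (0.0998) and -0.34 at 24 h (0.0850).

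Leaving out any 1 experiment ended the Atf4 calls of the fit without the block, at adjusted p between 0.0998 and 0.196 for 12 h and between 0.0850 and 0.167 for 24 h. With the block both calls held without each experiment, whereas the block call of Atf4 in the F test (adjusted p = 0.00694) was lost without any 1 experiment. Without the 12 h arrays of experiments 1 and 3, whose labels are worded differently from the rest, the 12 h change rested on 1 array and was -0.59 (0.135). At 48 h Atf4 read 2903, 3161 and 2881, a change of -0.40 (adjusted p = 0.0747; 0.0145 with the block). That block call was lost without experiment 1 (-0.17, 0.253) or 3 (-0.49, 0.0601), and the 6 h one without experiment 1 (-0.17, 0.269). From 6 h on the trend was 0.03 ± 0.05 per day.

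Mthfd2 (chr6:83305704-83326011), a mitochondrial enzyme of folate one-carbon metabolism and a known target of ATF4, had the largest decrease of the members. Its intensity was 2164, 2642 and 2164 at 0 h. It had dropped to 1215, 1696 and 1266 after 6 h. The 12 h arrays read 992, 1354 and 753, and the 24 h arrays 888, 1328 and 887. Every one of the later 24 arrays was below the lowest 0 h array. Taken 1 time at a time, 9.55%, 11%, 9.15% and 9.55% of all probe sets were so at 6 h, 12 h, 24 h and 48 h. The share that was so at every later time was not counted. At 12 h it fell by 1.15 ± 0.33 (2.22-fold, adjusted p = 0.0319) and at 24 h by 1.16 ± 0.33 (2.23-fold, 0.0355). The 3 experiments gave -1.28, -0.92 and -1.27 at 24 h. The earlier change at 6 h was -0.72 ± 0.33 (0.26) and with the block ± 0.14 (0.00113). By 48 h the level was 1041, 2007 and 1149, and the change from 0 h was -0.76 (0.198; 0.000479 with the block).

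The Mthfd2 calls of the fit without the block ended without experiment 1 (-1.18 at 12 h, adjusted p = 0.19; -1.10 at 24 h, 0.249) or 3 (-0.99, 0.264; -1.09, 0.235), at 24 h also with no filter on dim probe sets (0.0533), and at 12 h without the 12 h arrays of experiments 1 and 3 (-0.72, 0.575). With the block they held without each experiment, at adjusted p of at most 0.00155. Its RefSeq promoter window starts from a transcript that begins inside the span of the gene, so it is not printed.

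Asns (chr6:7675165-7693209) encodes asparagine synthetase, a classic ATF4 target. Its intensity started at 3014, 5472 and 5188 and was 2421, 4050 and 3911 after 6 h. The 12 h arrays read 1705, 3620 and 2965, the 24 h arrays 1569, 3026 and 3136, and the 48 h arrays 1638, 3348 and 2767. In each experiment the 0 h array was the highest of the 9, a pattern not counted over all probe sets. However, experiment 1 ran lower than the others, with a median of 1895 against 3348 and 2767, and the time groups overlapped. The 12 h change was -0.68 ± 0.32, and those of 24 h and 48 h were both -0.79 ± 0.32 (adjusted p = 0.24, 0.172 and 0.164). With the block their SE was 0.11 and the adjusted p were 0.000107, 1.88e-05 and 1.66e-05, and each held without each experiment. At 6 h the change was -0.33 (0.703; 0.0451 with the block), lost without any 1 experiment (0.111 to 0.227). Within experiments the 24 h change was -0.98, -0.76 and -0.63.

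Ddit3 (chr10:127290793-127296291) encodes CHOP, the transcription factor tied to cell death in prolonged ER stress. It was the one tested member whose mean was above the 0 h mean at all 8 later times. Its intensity started at 515, 519 and 493 and was 997, 522 and 684 after 6 h. The 12 h arrays read 732, 813 and 861. At 12 h all 3 arrays were above all 3 of the 0 h arrays, as for 13.1% of all probe sets. The change was 0.60 ± 0.26 (adjusted p = 0.189), and with the block ± 0.20 (0.0393). That call was lost without any 1 experiment, at adjusted p from 0.0785 to 0.179. Later values scattered. Experiment 3 read 370 at 18 h and 487 at 48 h, both below its 0 h value, and at 24 h the change was 0.37 ± 0.26 (0.531; 0.243 with the block).

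**Figure D2:**
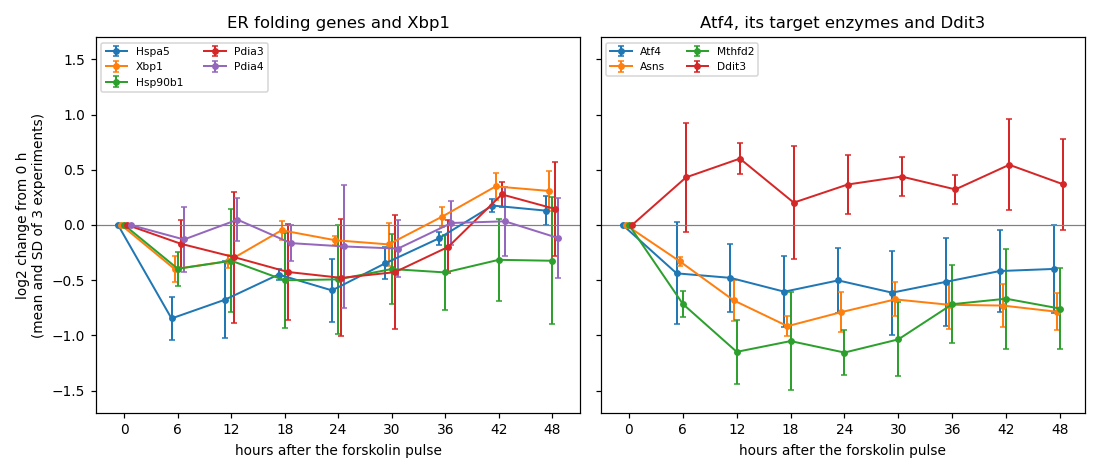
Change from 0 h on the log2 scale (quantile normalized) against hours after the pulse, as the mean of the 3 within-experiment changes with bars of 1 SD. The left panel shows Hspa5, Xbp1 and Pdia3 going from -0.85, -0.40 and -0.17 at 6 h to above 0 at 42 h. The right panel shows Mthfd2, Asns and Atf4 below 0 from 6 h to 48 h, with Ddit3 above 0.

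Few members were called at 48 h against 24 h, which compares single time points and not whole days. A missing call does not show that a member stayed the same. All 9 estimates were above 0, with a median of 0.17 (-0.0033 over all probe sets). For Ddit3 and Asns the estimate was 0.00 and changed sign with the setting. None was called by limma without the block, 2 had an unadjusted p below 0.05, and 0.0268% of all probe sets were called. With the block Hspa5 was higher by 0.72 ± 0.12 (1.65-fold, adjusted p = 0.00526), against 0.577% of all probe sets (0.188% higher and 0.389% lower). The call was lost without experiment 2 (0.79, 0.117) or 3 (0.61, 0.428). Xbp1 was at 0.45 ± 0.11 with the block (0.0549), and without experiment 1 it was called (0.55, 0.0235). The trend from 6 h to 48 h called 2 of 9, Hspa5 and Xbp1, in both fits. Of all probe sets 6.13% were called (2.83% rising and 3.3% falling), and 17.1% with the block (8.05% and 9.02%).

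No 24 h rhythm was called. A cosine and sine of 24 h beside the linear trend, on the 24 arrays from 6 h on, gave 0 of 9 members in limma (0 with an unadjusted p below 0.05) and 0% of all probe sets, of which 248 had an unadjusted p below 0.05. The block left both at 0, with an unadjusted p below 0.05 for Xbp1 (0.0148), Asns (0.0269) and 783 of all probe sets. The fitted amplitudes ran from 0.02 for Atf4 to 0.15 for Asns, with a median of 0.072 against 0.094 for all probe sets.

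Over the 27 arrays, after each experiment's mean was removed, Hspa5 went with Xbp1 (Pearson's r = 0.87) and less with Pdia3 (0.66). Asns went with Mthfd2 (0.76) and with Atf4 (0.63), and Atf4 with Mthfd2 (0.72). Hspa5 and Asns had an r of -0.08, and Atf4 and Ddit3 of -0.45. Pdia4 had at most 0.31 with any other member. Across all tested probe sets with 1 gene symbol, the 5 most like Hspa5 were Fkbp1a (0.89), Xbp1 (0.87), Manf (0.85), Eif1ax (0.84) and Mapre1 (0.84). The 5 most like Asns were Rgs2 (0.93), Rrm1 (0.89), Tnc (0.89), Ahcy (0.88) and Pkm (0.88). These are descriptions over arrays that share time points, cultures and scaling.

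A list of other UPR and ER folding genes had 54 genes on the array and 49 tested, each by its brightest probe set. At 6 h against 0 h 38 of 49 were below 0, with a median of -0.24 (-0.0043 over all probe sets), and 3 were called, all lower. That is 6.12% of the list, beside 6.09% of all probe sets, so the count is near the background. The 3 were Manf (-0.94 ± 0.28), a secreted factor induced by ER stress, Dad1 (-0.60 ± 0.13), a subunit of the oligosaccharyltransferase, and Calu (-0.37 ± 0.10), a calcium-binding protein of the ER, named after their values were seen. With the block 11 were lower and 1 higher, 24.5% against 16.7% of all, but the count was 3 without experiment 2 or 3. Over all probe sets the block count was 600 without either, against 1245 with all experiments. At 12 h 2 were higher and 3 lower (10.2% against 8.33% of all), and with the block 2 and 15 (34.7% against 20.4%). Without experiment 2 or 3 the block count was 7 and 4. Over all probe sets it was 806 and 758, against 1521 with all experiments.

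At 24 h 37 of these 49 genes were below 0, with a median of -0.12 (0.0081 over all probe sets). The 1 called gene was Calu (-0.33 ± 0.10, adjusted p = 0.0496), 2.04% of the list beside 6.92% of all. With the block 9 were lower and 1 higher (20.4% against 18.6% of all), and the count was 11, 3 and 1 without experiment 1, 2 and 3. Over all probe sets it was 1033, 797 and 644, against 1383 with all experiments. The lowest values among the block calls were those of Wfs1 (-0.81), an ER membrane protein, the UPR sensor Atf6 (-0.78), the oligosaccharyltransferase subunit Rpn2 (-0.66) and Manf (-0.60). Of these Wfs1 was called with the block without each experiment, at adjusted p of at most 0.0493. Atf6 lost its call without any 1 experiment (0.131, 0.104 and 0.0631), and Rpn2 (-0.38, 0.194) and Manf (-0.49, 0.169) lost theirs without experiment 3. By 48 h 1 gene was lower than at 0 h (2.04% against 7.9% of all), and with the block 3 were higher and 6 lower (18.4% against 19.8%). Without experiment 2 or 3 the block count was 1. Over all probe sets it was 855 and 755, against 1475 with all experiments.

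From 6 h to 48 h the trend of 42 of these 49 genes was above 0. Without the block 3 were called as rising, Manf (0.54 per day), Selenos (0.37) and Calu (0.33), and Nucb1 as falling (-0.27), together 8.16% against 6.13% of all. With the block 13 rose and 1 fell, 28.6% against 17.1% of all, and 6 rose and 1 fell without experiment 2 or 3. Over all probe sets the block count was then 583 and 467, against 1272 with all experiments. At 48 h against 24 h none was called by limma, 5 had an unadjusted p below 0.05, and Calu had the smallest p (0.48 ± 0.10, adjusted p = 0.137). With the block Calu was the 1 gene called (0.0192), and the call was lost without any 1 experiment (0.0915, 0.117 and 0.428).

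A list of other ATF4 and amino acid response genes had 44 on the array and 41 tested. At 24 h 26 of 41 were below 0, with a median of -0.27, and 3 were called, all lower. That is 7.32% of the list, beside 6.92% of all probe sets, so the count is near the background. The 3 were Cebpb (-1.15 ± 0.24, adjusted p = 0.00319), a bZIP factor that pairs with ATF4, Bcat1 (-1.10 ± 0.33, 0.0473), a branched-chain aminotransferase, and Gars (-0.68 ± 0.16, 0.0119), glycyl-tRNA synthetase. With the block 13 were lower and 2 higher, 36.6% against 18.6% of all, or 9, 9 and 7 in all without experiment 1, 2 and 3. Over all probe sets the block count was then 1033, 797 and 644, against 1383 with all experiments. The 13 lower ones included the serine synthesis enzyme Psat1 (-1.14), called with the block without each experiment. They also included the heme oxygenase gene Hmox1 (-1.02), which lost its call without experiment 3 (0.0509). With the block Bcat1 lost its call without experiment 2 (0.134), and Gars without experiment 1 (0.058).

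At 6 h 3 genes of this list were lower (7.32% against 6.09% of all), and with the block 8 were lower and 3 higher (26.8% against 16.7%). Without experiment 3 the block count was 5, and over all probe sets 600, against 1245 with all experiments. At 12 h 6 were lower (14.6% against 8.33% of all), and with the block 14 lower and 2 higher (39% against 20.4%). Without experiment 2 the block count was 8, and over all probe sets 806, against 1521 with all experiments. By 48 h 1 was lower than at 0 h (2.44% against 7.9% of all), and with the block 9 lower and 2 higher (26.8% against 19.8%). Without experiment 2 or 3 the block count was 6 and 7. Over all probe sets it was 855 and 755, against 1475 with all experiments. At 48 h against 24 h none was called by limma, 3 had an unadjusted p below 0.05, and Atf3, a stress-induced bZIP factor, had the smallest p (1.25 ± 0.35, adjusted p = 0.568). With the block Hmox1 was the 1 gene called (1.05 ± 0.24, 0.0477), and this was lost without experiment 2 (0.146) or 3 (0.639). The trend was up in 2 (Atf3 and Slc7a5) and down in 1 (Pck2), 7.32% against 6.13% of all. With the block it was up in 5 and down in 2 (17.1% of the list and of all probe sets), or 3 and 2 in all without experiment 2 or 3. Over all probe sets the block count was then 583 and 467, against 1272 with all experiments. Rhythm was called in 0 genes of both lists in both fits, with an unadjusted p below 0.05 for 1 of 49 and 2 of 41 without the block. Of the called genes named here without the block, the trend of Calu was the one called in that fit without each experiment in turn.

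**Figure D3:**
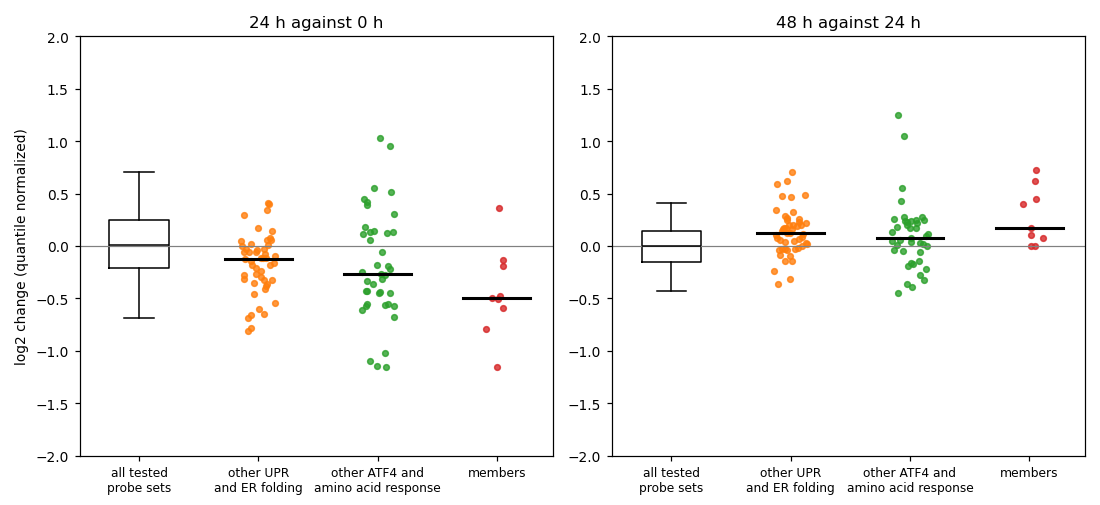
Log2 change at 24 h against 0 h (left) and at 48 h against 24 h (right). Boxes show the quartiles and median of all 7453 tested probe sets with whiskers at their 5th and 95th percentiles (-0.68 and 0.70 on the left), points are genes of the 2 lists and the 9 tested members, and bars are medians, which on the left lie at -0.12, -0.27 and -0.49.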

How the data were processed

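Linear probe set intensities of 27 Affymetrix mouse U74v2 arrays were used as deposited, made by an algorithm not given in the sources used here. The deposited intensity values have a mean, without the 2% of probe sets at each end, of 500.28 to 500.35 on every array. Medians ran from 166.8 to 200.7, and no 2 arrays were identical. Precision is limited by the number of arrays. Values were taken as log2(intensity + 12.1), the 10th percentile, so folds of dim probe sets are understated, and quantile normalized, since array medians spread over 0.25. Controls (66) were left out, as was any probe set whose mean log2 value was under the 40th percentile (6.77), which kept 7453. Of all probe sets 10855 had 1 gene symbol, 396 several and 1193 none listed, and 10839 matched RefSeq (GRCm38.p6).

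limma 3.58.1 in R 4.3.3 (eBayes with an intensity trend, Benjamini-Hochberg) fitted 9 time means, or a trend with 24 h cosine and sine terms. The code was tested on simulated data. Deviations from time means correlated within each experiment in every pair (r 0.426 to 0.642, 0.349 to 0.599 and 0.135 to 0.482; 36 pairs each), so the labels' experiment numbers paired the arrays. The members, lists and tests were chosen with earlier results of these data known. All member probe sets are named. List genes are named for 24 h against 0 h and 48 h against 24 h (up to 4 called, or the smallest p); list genes named at 6 h or for the trend were chosen after their values were seen. Alternatives changed the scaling, pseudocount, filter, variance model, weights, block, period, trend, time points and replicates.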

Additional observations from a re-analysis of the deposited data

How the results depend on the processing

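The counts of called members depended most on the replicate block, which is the same fit with the experiment as a term and raised them from 1 to 6 (F test), 0 to 6 (6 h), 2 to 6 (12 h), 2 to 5 (24 h), 0 to 4 (48 h) and 0 to 1 (48 h against 24 h). Over all probe sets the block raised the counts from 544 to 1969, 454 to 1245, 621 to 1521, 516 to 1383, 589 to 1475 and 2 to 43. Among the members it left the trend at 2 and the rhythm at 0 and changed no call other than those given with the results. With the block and the deposited scaling, chosen after seeing the data, the counts were 7, 6, 7, 5, 5 and 1 in the same order. Over all probe sets that setting called 2005, 1295, 1562, 1429, 1529 and 41. Without the block, the deposited scaling and median centring each gave 2 for the F test, 1 at 6 h and 1 at 48 h. Over all probe sets these settings called 556 and 462, 477 and 429, and 596 and 518. Array weights gave 2 for the F test, 3 at 6 h, 4 at 12 h and 1 at 48 h, and over all probe sets 1135, 803, 994 and 899. With no filter on dim probe sets the 24 h count was 1, and without the 0 h arrays the F test count was 0. Without the 12 h arrays of experiments 1 and 3 the 12 h group was 1 array, so no 12 h count is given for that setting. Over all probe sets, 433 were called at 24 h with no filter and 99 in the F test without the 0 h arrays. Leaving out 1 experiment gave 0 to 3 for the F test, 0 to 2 at 6 h, 0 to 2 at 12 h, 0 to 3 at 24 h, 0 to 2 at 48 h and 0 to 2 for the trend. Over all probe sets it called 31 to 504, 111 to 334, 157 to 518, 128 to 411, 146 to 558 and 37 to 739. Without experiment 1, the 2 members called at 12 h and the 3 at 24 h were others than Atf4 and Mthfd2. With the block as well (added after seeing the data) leaving out 1 experiment gave 3 to 6, 3 to 4, 4 to 7, 3 to 7, 2 to 4 and, at 48 h against 24 h, 0 to 2. Over all probe sets it called 555 to 1523, 600 to 845, 758 to 1149, 644 to 1033, 755 to 1235 and 0 to 43. The cause of these shifts was not tested, except that leaving out arrays lowers the number of samples. The rhythm count was 0 under every alternative run. Over all probe sets the trend split was 211 rising and 246 falling, and 145 and 258 with median centring.

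Of 72 pairs of a member and a comparison, those of the F test (a range) and of the rhythm (an amplitude) have no sign. Among the remaining pairs 12 changed sign under some setting, and none of these was called there. Of those printed, the Pdia4 change at 24 h ran from -0.52 to 0.0145 when 1 experiment was left out, with or without the block. The Ddit3 value at 48 h against 24 h became -0.0103 with the deposited scaling (with and without the block), -0.0134 with median centring, -0.0707 with array weights and -0.0607 to 0.0945 when 1 experiment was left out, -0.0607 and -0.0288 without experiments 1 and 2. For Asns it became -0.0143 with array weights and -0.0724 to 0.108 when 1 experiment was left out, -0.0292 without experiment 1. The Atf4 trend became -0.0034 with median centring. Dim probe sets, Calr among them, could not be told from background.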
